A study of Mus musculus with 9 samples.

Results

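The genes described here are 9 lymphoid lineage genes, Il7r, Rag1, Dntt, Cd79a, Cd79b, Cd3e, Ikzf1, Gata3 and Tcf7, among the 16535 genes that could be named on an Agilent whole mouse genome array. They were chosen by name, and every probe whose transcript identifier belongs to one of them was taken, which gave 15 probes among 41174 on the array. For 7 of the genes 1 probe was well above background on all 9 arrays (Ikzf1, Gata3, Cd79a, Cd79b and Cd3e through their only probe, Tcf7 and Dntt through 1 of several), whereas no probe of Il7r or Rag1 was. In these multipotent myeloid cells Cd79b was 3.14-fold lower after Pu.1 knockdown than in control cells. Ikzf1 was 1.50-fold higher after Gata2 knockdown in a call that most other settings did not keep. For 8 of the 12 tested probes of the members more of the variance lay between slides than between groups. The median share over tested probes of the array was likewise higher between slides (42.0%) than between groups (21.9%).

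The arrays came from FDCPmix cells, a karyotypically normal mouse hematopoietic progenitor line that self-renews in interleukin 3 and can form erythroid, neutrophil and other myeloid cells. Cells kept in self-renewal conditions were transduced with empty lentivirus (EV), with lentivirus carrying an shRNA against Gata2 (Gata2 KD) or with lentivirus carrying an shRNA against Pu.1 (Pu.1 KD), and viable GFP+ cells were sorted after 5 days. All 3 groups shared the line, the culture conditions and the GFP sort, and the shRNAs were carried in Lentilox 3.7. Each group had 3 arrays hybridized with Cy3-labeled cRNA from 150 ng of total RNA. The samples were triplicates of a single line, so the p-values measure the spread between these samples, and in such bulk RNA fewer cells of a type and less RNA per cell cannot be told apart. The design asks how the genes depend on each of the 2 transcription factors.

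Lymphoid fate is prepared by Ikzf1 (Ikaros), a zinc finger factor active from the multipotent stage on, and by the receptor for interleukin 7, whose alpha chain is Il7r. Rag1, with Rag2, cuts antigen receptor genes for V(D)J recombination, and Dntt (terminal transferase) adds untemplated nucleotides at the joints. Cd79a and Cd79b form the signaling pair of the B-cell receptor, Cd3e is a signaling chain of the T-cell receptor complex, and Gata3 and Tcf7 (TCF-1) are transcription factors of early T cells and innate lymphoid cells. PU.1, encoded by Spi1, is needed for both myeloid and lymphoid development, whereas GATA2 is a factor of stem cells, progenitors and mast cells. Low transcription of lymphoid genes in multipotent cells is known as lineage priming.

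Levels are log2 processed signals centered so that 0 is the 75th percentile of the array, and they are compared between groups within a probe and not between probes. Both knockdowns were visible in their target: Gata2 was lower in Gata2 KD than in EV (log2 change -1.61 ± 0.23 SE, adjusted p = 0.00414) and Spi1 was lower in Pu.1 KD (-1.73 ± 0.16, adjusted p = 0.00178). Spi1 was also higher in Gata2 KD (1.39 ± 0.16, adjusted p = 0.00120). Between 80.4% and 89.6% of the spots of an array were well above background and none was saturated. EV replicate 3 had the highest floor, with no probe below -5.04 well above background, against -5.85 to -6.41 on the other 8 arrays. The 9 arrays lay on 3 slides, numbered 1 to 3 here, each of which held 1 array of each group.

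Promoter windows of 250 bases upstream of the annotated start were taken for 8 of the 9 members from RefSeq on GRCm38.p6 and searched on both strands for GGAAGTG, a PU.1 consensus, and for GATA motifs. No window was available for Cd79b, so its promoter was not searched. The GATA motifs searched were AGATAA and its form with the last base changed, which reads AGATAG, as well as the forms of both that start with another base, which read TGATAA in the first case and TGATAG in the other, and no match overlapped another. The windows of Cd79a and Cd3e and the first of the 2 Tcf7 windows held 1 PU.1 match each. Those of Dntt and Rag1 held 1 GATA match each, and the second Tcf7 window and those of Ikzf1, Gata3 and Il7r held neither. Among 32851 promoter windows of the same length, 8.55% held the PU.1 motif and 26.5% held a GATA motif. Of these windows, 4 are printed on the strand of the gene with matches in capitals, those of Cd79a and Cd3e because they held the PU.1 motif, that of Dntt for its GATA motif, and the second of the 2 Ikzf1 windows because Ikzf1 differed between the knockdowns. They lie at chr7:24897247-24897496 (plus strand), chr9:45009612-45009861 (minus strand), chr19:41029025-41029274 (plus strand) and chr11:11689927-11690176 (plus strand).
Cd79a: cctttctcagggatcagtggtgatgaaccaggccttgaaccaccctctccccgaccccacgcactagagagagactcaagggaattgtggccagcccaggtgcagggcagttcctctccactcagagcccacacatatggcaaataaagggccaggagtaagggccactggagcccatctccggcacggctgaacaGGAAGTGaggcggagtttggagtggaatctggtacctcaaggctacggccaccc
Cd3e: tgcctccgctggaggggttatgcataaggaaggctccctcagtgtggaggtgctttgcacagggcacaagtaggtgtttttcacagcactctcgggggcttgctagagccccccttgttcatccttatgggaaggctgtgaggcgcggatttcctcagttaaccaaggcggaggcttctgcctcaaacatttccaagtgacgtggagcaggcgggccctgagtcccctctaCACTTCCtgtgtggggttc
Dntt: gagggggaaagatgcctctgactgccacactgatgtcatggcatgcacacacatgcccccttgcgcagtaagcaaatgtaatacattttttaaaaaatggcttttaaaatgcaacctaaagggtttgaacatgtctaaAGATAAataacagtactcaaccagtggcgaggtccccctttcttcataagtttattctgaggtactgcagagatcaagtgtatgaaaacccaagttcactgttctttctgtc
Ikzf1: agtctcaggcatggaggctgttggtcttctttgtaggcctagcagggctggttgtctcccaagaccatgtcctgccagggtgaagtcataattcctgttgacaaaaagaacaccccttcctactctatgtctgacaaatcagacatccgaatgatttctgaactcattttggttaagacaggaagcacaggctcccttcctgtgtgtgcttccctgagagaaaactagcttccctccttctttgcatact
The match lay 54 to 48 bases upstream of the start in Cd79a, 19 to 13 bases upstream in Cd3e, where it was on the opposite strand, and 112 to 107 bases upstream in Dntt. A match is a run of letters and not a measured binding site.

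Ikzf1 was high on all arrays and followed the groups closely. Its level (probe A_52_P618569) was 1.69, 1.75 and 1.67 in EV replicates 1 to 3, 2.39, 2.16 and 2.32 in Gata2 KD and 1.35, 1.37 and 1.41 in Pu.1 KD. The 3 groups did not overlap, and the order from high to low was Gata2 KD, EV, Pu.1 KD. Against EV, Ikzf1 was higher in Gata2 KD by 0.59 ± 0.12 (SE; 1.50-fold, 95% confidence interval 0.31 to 0.87 on the log2 scale) with an adjusted p of 0.0277, and it was higher on 3 of 3 slides (by 0.63, 0.49 and 0.64 on slides 1 to 3). The call was not firm: with the spread estimated without slide differences it held (adjusted p = 0.0139 with slide as a block), but it was lost when any 1 of the 9 arrays was left out (adjusted p 0.0551 to 0.111), when arrays were scaled to their median (0.222) and when only EV and Gata2 KD entered the fit (0.126). Pu.1 KD and EV, the neighbors at the low end, differed by -0.32 (interval -0.60 to -0.05) without passing the threshold (adjusted p = 0.293, and 0.118 with slide as a block). The 2 knockdowns differed from each other by 0.91 ± 0.12 (1.88-fold, adjusted p = 0.00176), and this difference passed under all 20 alternative settings (adjusted p up to 0.0287). A single probe reads 1 stretch of a gene with many splice forms, so the forms of Ikaros could not be separated.

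**Figure D1:**
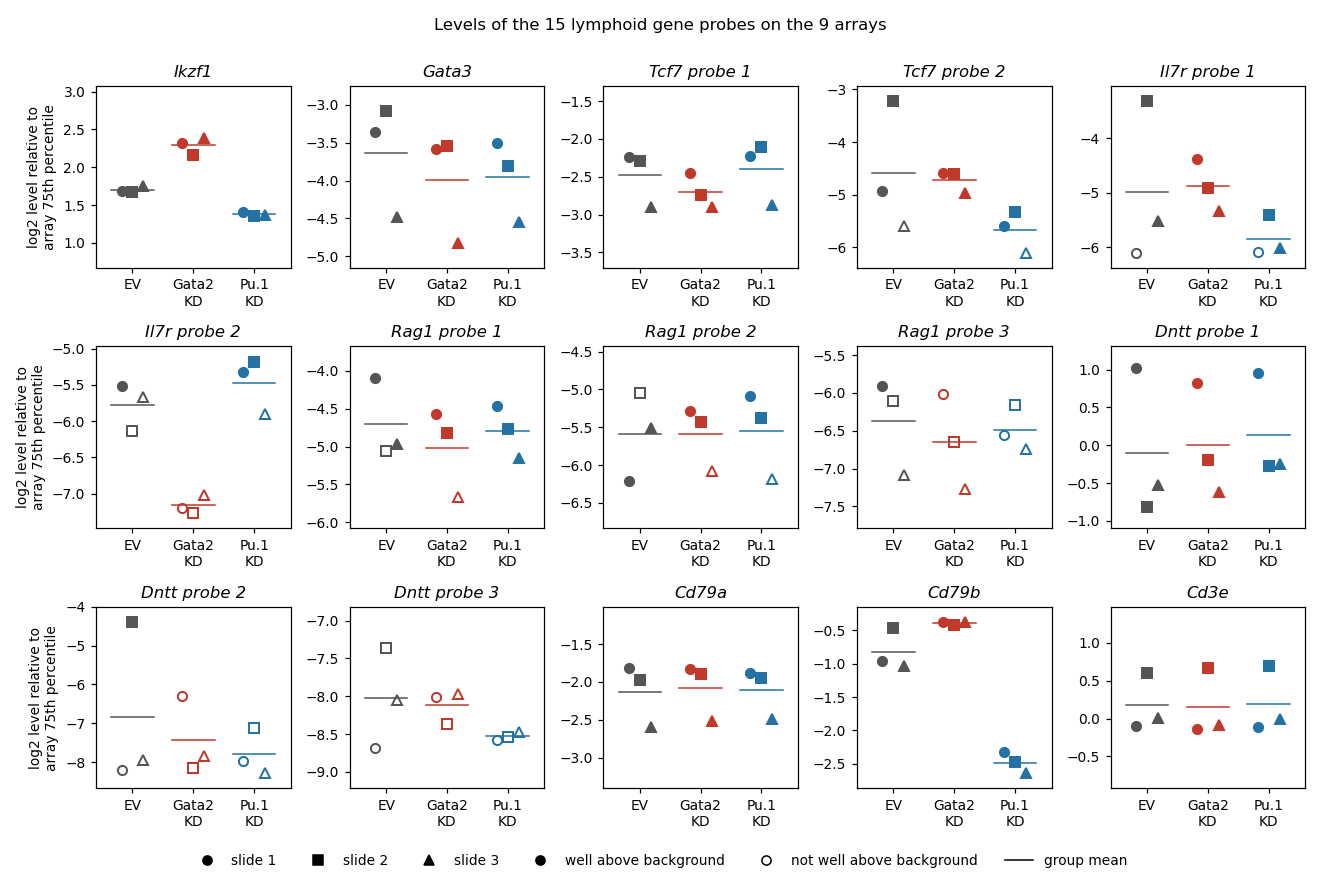
Levels (log2, relative to the 75th percentile of the array) of the 15 probes of the 9 lymphoid genes on each array by group, with lines at group means, marker shapes for the 3 slides and open markers for values not well above background; the vertical axes differ between panels. Ikzf1 and Cd79b separate by group, Cd3e, Cd79a, Dntt probe 1 and Gata3 separate by slide, and most points of Rag1, Il7r probe 2 and Dntt probes 2 and 3 lie low or are open.

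Cd79b showed the largest difference against EV among the members measured above background. Its level (probe A_51_P342652) was -0.97, -1.04 and -0.47 in EV replicates 1 to 3, -0.38, -0.43 and -0.38 in Gata2 KD and -2.47, -2.64 and -2.32 in Pu.1 KD. All Pu.1 KD arrays lay far below all others, and the Gata2 KD arrays lay just above the EV arrays, with a gap of 0.04 between the lowest Gata2 KD array and EV replicate 3, which shared a slide. Cd79b fell by 1.65 on the log2 scale in Pu.1 KD (SE 0.18, 3.14-fold, interval -2.06 to -1.24, adjusted p = 0.00351; 0.00542 with slide as a block). The change was -1.36, -2.00 and -1.60 within slides 1 to 3. It passed under all 20 alternatives, with changes from -1.76 to -1.17 and adjusted p up to 0.0382. The difference of Gata2 KD from EV was 0.43 (interval 0.02 to 0.84) and did not pass (adjusted p = 0.305), nor did it without EV replicate 3 (0.61, adjusted p = 0.0700) or with slide as a block (0.171). The 2 knockdowns differed by 2.08 ± 0.18 (4.24-fold, interval 1.68 to 2.49, adjusted p = 0.000151), and this too passed under all 20 alternatives.

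Cd79a, the partner of Cd79b in the B-cell receptor, had no call in any comparison. Its level was -1.82, -2.59 and -1.97 in EV replicates 1 to 3, -2.52, -1.89 and -1.83 in Gata2 KD and -1.95, -2.49 and -1.89 in Pu.1 KD. The groups overlapped fully, and the 3 low arrays were those of slide 3. Pu.1 KD differed from EV by 0.02 (interval -0.63 to 0.67, adjusted p = 1.000) and Gata2 KD by 0.05 (interval -0.60 to 0.70, adjusted p = 0.991), so the Pu.1 KD change of Cd79b lay outside the Pu.1 KD interval of Cd79a. With slide as a block neither passed (adjusted p = 0.933 and 0.792).

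Cd3e, the signaling chain of the T-cell receptor, was above background on all arrays and had no call in any comparison. Its level was -0.10, 0.01 and 0.61 in EV replicates 1 to 3, -0.09, 0.67 and -0.14 in Gata2 KD and 0.69, -0.01 and -0.11 in Pu.1 KD. The 3 high arrays, 1 in each group, were those of slide 2. Neither knockdown passed against EV (Gata2 KD -0.03, interval -0.74 to 0.69; Pu.1 KD 0.02, interval -0.70 to 0.74), and within slides the differences from EV lay between -0.09 and 0.08.

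The genes of antigen receptor recombination did not pass in any comparison. Dntt probe 1 was well above background on all arrays, at 1.02, -0.52 and -0.81 in EV replicates 1 to 3, -0.61, -0.19 and 0.82 in Gata2 KD and -0.28, -0.25 and 0.95 in Pu.1 KD. Its high array in each group was that of slide 1. Its differences from EV were 0.11 for Gata2 KD (interval -1.22 to 1.44) and 0.25 for Pu.1 KD (interval -1.08 to 1.57). These intervals include the slide differences. Within slides 1 to 3 the differences were -0.20, 0.62 and -0.09 for Gata2 KD and -0.07, 0.54 and 0.27 for Pu.1 KD. Neither comparison passed with slide as a block (adjusted p = 0.757 and 0.507). Dntt probe 2, which carries the identifier of another Dntt transcript, was above background only in EV replicate 3, at -4.39 against -8.29 to -6.29 on the other arrays, and Dntt probe 3 was above background on no array, so neither was tested. The 3 probes of Dntt thus differed widely in detection.

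Rag1 lay close to background throughout. Rag1 probe 1 was well above background on 7 arrays and ranged from -5.66 in Gata2 KD replicate 1 to -4.09 in EV replicate 1, with a mean of -4.70 ± 0.53 in EV, -5.02 ± 0.57 in Gata2 KD and -4.79 ± 0.35 in Pu.1 KD (SD, n = 3). Rag1 probe 2, above background on 6 arrays, had means of -5.59, -5.60 and -5.55, and Rag1 probe 3, printed in 10 spots, reached that state only in EV replicate 1 and was not tested. The changes of the 2 tested probes against EV lay between -0.31 and 0.04, with intervals that reached from -1.14 to 0.92. Changes of Rag1 within these intervals remained possible at such signals, and how large a change would have been called was not tested.

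Of the T-lineage factors, Gata3 was low but above background on all arrays. Its level was -3.36, -4.48 and -3.08 in EV replicates 1 to 3, -4.83, -3.54 and -3.59 in Gata2 KD and -3.80, -4.55 and -3.50 in Pu.1 KD, the lowest array of each group being that of slide 3. Gata3 differed from EV by -0.35 in Gata2 KD (interval -1.45 to 0.76) and by -0.31 in Pu.1 KD (interval -1.42 to 0.80), lower on 3 of 3 slides in each case but without passing (adjusted p = 0.926 and 0.968, and 0.244 and 0.337 with slide as a block). Tcf7 probe 1 had means of -2.48 ± 0.37 in EV, -2.70 ± 0.23 in Gata2 KD and -2.40 ± 0.42 in Pu.1 KD, again lowest on slide 3, and did not pass (Gata2 KD -0.22, interval -0.82 to 0.39; Pu.1 KD 0.08, interval -0.53 to 0.68).

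Tcf7 probe 2, above background on 7 arrays, gave a different picture. It read -4.92, -5.60 and -3.23 in EV replicates 1 to 3, -4.96, -4.61 and -4.58 in Gata2 KD and -5.32, -6.10 and -5.60 in Pu.1 KD. EV replicate 3 stood above all other arrays, and the 2 knockdown groups did not overlap. The difference of Pu.1 KD from EV was -1.09 (interval -2.32 to 0.13, adjusted p = 0.493), and it was -0.41 without EV replicate 3. The difference between the knockdowns, 0.95 (interval -0.27 to 2.18), did not pass either (adjusted p = 0.455).

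The probes of Il7r, the receptor chain for interleukin 7, disagreed. Il7r probe 1 was above background on 7 arrays, at -6.10, -5.52 and -3.32 in EV replicates 1 to 3, -5.34, -4.91 and -4.38 in Gata2 KD and -5.42, -6.02 and -6.09 in Pu.1 KD, with EV replicate 3 again above the rest. Gata2 KD differed from EV by 0.11 (interval -1.38 to 1.59, adjusted p = 0.991), and the sign depended on the arrays: the difference was 0.94 without EV replicate 3, -0.45 and -0.16 without EV replicates 1 and 2 and -0.14 without Gata2 KD replicate 3. Pu.1 KD differed from EV by -0.86 (interval -2.34 to 0.62, adjusted p = 0.786), or by -0.03 without EV replicate 3. Il7r probe 2 read -5.52, -5.66 and -6.14 in EV, -7.02, -7.27 and -7.20 in Gata2 KD and -5.18, -5.90 and -5.33 in Pu.1 KD, and all Gata2 KD arrays lay below all others. This probe was well above background on 1 EV array, on no Gata2 KD array and on 2 Pu.1 KD arrays, so it gives no fold change. The fitted differences of these signals, -1.39 for Gata2 KD against EV and -1.69 for Gata2 KD against Pu.1 KD, were called (adjusted p = 0.0109 and 0.00224). They shrank to -0.0017 and -0.07 under normexp background correction (adjusted p = 1 and 1.000) and to -0.03 and -0.24 in the deposited values (0.988 and 0.326). The calls also ended under quantile normalization (0.589 and 0.141) and the trend and robust settings (0.166 and 0.0525), and the first was lost without Gata2 KD replicate 2 (0.0587).

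**Figure D2:**
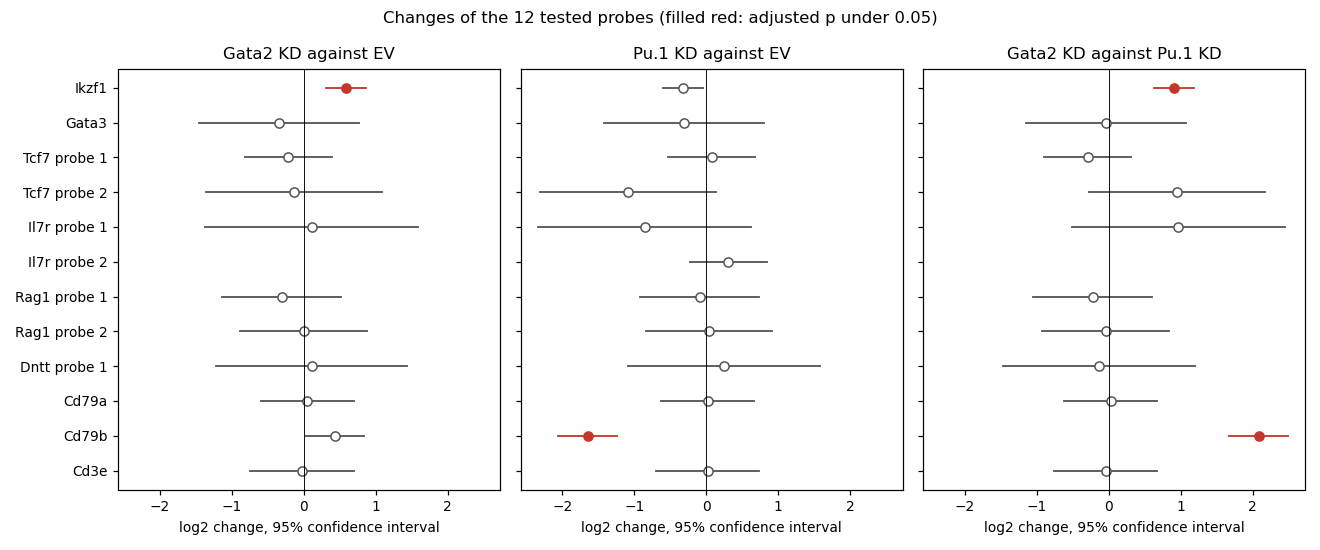
Log2 changes of the 12 tested probes with 95% confidence intervals in 3 panels, 1 for each knockdown against EV and 1 for Gata2 KD against Pu.1 KD; filled red points passed an adjusted p of 0.05, and Il7r probe 2 is left out of the panels with Gata2 KD, where it was not above background on any Gata2 KD array. Cd79b is the only probe called in Pu.1 KD against EV (-1.65), Ikzf1 is called in Gata2 KD against EV (0.59), and both are called between the knockdowns (2.08 and 0.91).

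The calls among the 12 tested probes were counted beside those of the whole array (limma, Benjamini-Hochberg over 36585 tested probes). In Gata2 KD against EV 1 probe was called higher (Ikzf1) and 1 lower (Il7r probe 2), where 5.2% of all probes were called, 2.96% higher and 2.24% lower. Groups did not overlap for 3 of the 12 probes, against 18.6% of all probes. Il7r probe 2 passed the filter only through 1 EV and 2 Pu.1 KD arrays and was well above background on no Gata2 KD array. Its calls here and between the knockdowns are counted but are no support for a change. In Pu.1 KD against EV 0 were called higher and 1 lower (Cd79b), where 2.7% of all probes were called, 1.27% higher and 1.42% lower. Here 2 of the 12 did not overlap, against 17.3% of all. An unadjusted limma p under 0.05 was found for 3 probes in Gata2 KD and 2 in Pu.1 KD against EV, and for 3 between the knockdowns. That count was not made over all probes, so it cannot be set beside a share of the array. Between Gata2 KD and Pu.1 KD 2 were called higher (Ikzf1 and Cd79b) and 1 lower (Il7r probe 2), against 9.63% called over all probes, 4.86% higher and 4.77% lower, and 5 of the 12 did not overlap, against 25.8%. The median log2 change of the 12 probes was -0.01, -0.04 and -0.04 in the 3 comparisons, beside -0.09, -0.04 and -0.04 for all tested probes. The first 2 comparisons share the EV arrays.

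For 8 of the 12 tested probes more of the variance lay between slides than between groups, a count that was not made over all probes. Over the 9 arrays, 99.1% of the variance of Cd3e lay between slides, 98.6% of that of Cd79a, 92.3% of that of Dntt probe 1, 87.7% of that of Gata3, 73.2% of that of Rag1 probe 1 and 71.3% of that of Tcf7 probe 1. In contrast, 97.5% of the variance of Ikzf1, 96.8% of that of Cd79b and 90.1% of that of Il7r probe 2, which was not well above background in Gata2 KD, lay between groups. Over 36525 tested probes with a value on every array the median share was 42.0% between slides and 21.9% between groups. The slide term of the fit was called for 6 of the 12 member probes (adjusted p 0.00683 for Cd3e, 0.00744 for Dntt probe 1, 0.00783 for Gata3, 0.00844 for Cd79a, 0.0386 for Tcf7 probe 1 and 0.0406 for Rag1 probe 1), where it was called for 26.9% of all probes. The direction differed between genes: Cd3e averaged 0.65 on slide 2 against -0.11 and -0.03 on slides 1 and 3, Dntt probe 1 averaged 0.93 on slide 1 against -0.43 and -0.46 on slides 2 and 3, and Gata3 averaged -4.62 on slide 3 against -3.48 and -3.47 on slides 1 and 2. Each group was measured once on every slide.

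**Figure D3:**
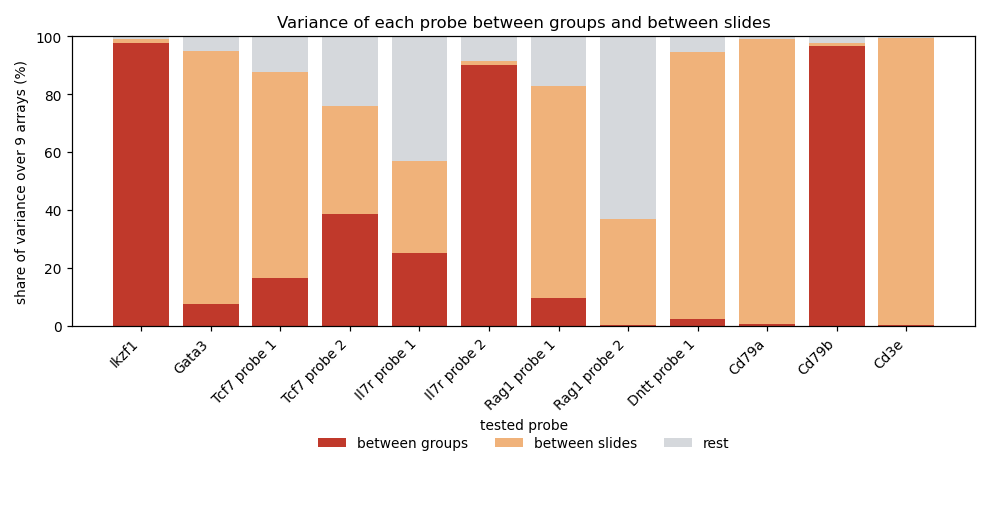
Share of the variance (%) of each tested probe over the 9 arrays that lay between the 3 groups, between the 3 slides and in the rest, as stacked bars adding to 100%. Ikzf1, Cd79b and Il7r probe 2 vary mostly between groups (90.1% to 97.5%), whereas Cd3e, Cd79a, Dntt probe 1 and Gata3 vary mostly between slides (87.7% to 99.1%).

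As a description, the genes whose levels followed the brightest probe of each member with a call most closely over the 9 arrays were sought among 14486 genes above background on all of them. For Ikzf1 they were Csf3r, the receptor for granulocyte colony-stimulating factor (Pearson r = 0.993), Ceacam1 (0.993) and Adgre1, the macrophage antigen F4/80 (0.992). Ikzf1 changed by 0.59 where Csf3r changed by 3.11, Ceacam1 by 1.90 and Adgre1 by 2.11 on the log2 scale in Gata2 KD. For Cd79b they were Klhl25, Cfp, which encodes the complement factor properdin, and Cav2, a caveolin (r = 0.988 for each). In Pu.1 KD Klhl25 changed by -1.04, Cfp by -2.87 and Cav2 by -1.13. For Il7r the brightest was probe 1, which had no call and was not above background on 2 arrays, and the genes were Ky (0.968), Tbc1d12 (0.968) and Tmed6 (0.956), with changes of -0.11 to -0.04 in Gata2 KD and -0.54 to -0.37 in Pu.1 KD. The points share arrays, slides and groups.

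Other lymphoid genes were taken from lists of known members. Beside the counts of these lists, 2.96% of all tested probes were called higher and 2.24% lower in Gata2 KD. In Pu.1 KD these shares were 1.27% and 1.42%. Of 20 genes of lymphoid progenitors and their cytokine receptors, 3 rose and 1 fell in Gata2 KD (median change of the list -0.20): Mef2c, a transcription factor of lymphoid and myeloid progenitors, rose by 2.19 ± 0.41 (SE) and Notch1, the receptor that directs T-cell fate, by 1.50 ± 0.21, while Stat5a, which signals below the interleukin 7 and interleukin 3 receptors, fell by 1.07. In Pu.1 KD 0 genes of this list rose and 1 fell (median -0.04). Flt3, a receptor of early lymphoid progenitors, and Il2rg, the common chain that pairs with Il7r, did not pass (Gata2 KD 0.20 and 0.69, adjusted p = 0.922 and 0.150). The 4 other Ikaros family genes, Ikzf2 to Ikzf5, had 0 calls by limma against EV, with changes from -0.56 to 0.07 in Gata2 KD and -0.29 to 0.03 in Pu.1 KD. Their unadjusted limma p was under 0.05 for 2 in Gata2 KD and 0 in Pu.1 KD, a count not made over all probes. Of 12 genes of V(D)J recombination and end joining, Dclre1c (Artemis) rose by 0.81 and Polm and Xrcc5 fell by 0.69 and by 1.23 in Gata2 KD (median -0.24), and Polm, a polymerase related to Dntt, rose by 1.08 in Pu.1 KD (median -0.13). Rag2 did not pass (-0.27 and -0.14).

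Of 20 B-lineage genes, 1 rose and 1 fell in Gata2 KD (median 0.05), and 0 rose and 2 fell in Pu.1 KD (median -0.01). Over all probes 5.2% were called in Gata2 KD and 2.7% in Pu.1 KD. Syk, a kinase below the B-cell receptor and below Fc receptors of myeloid cells, rose by 1.33 ± 0.22 and Cd72 fell by 0.79 in Gata2 KD. In Pu.1 KD, where Cd79b fell, Cd24a fell by 1.34 ± 0.24 and Lyn, a Src-family kinase of B cells and myeloid cells, fell by 1.17 ± 0.21. The B-lineage factor Pax5 and the adaptor Blnk were not among them: Pax5 changed by -0.25 and 0.03 and Blnk by 0.07 and -0.01 in Gata2 KD and Pu.1 KD, none passing, and Ebf1 was above background on 4 arrays. The slide term was called for 11 of these 20 genes, beside the 26.9% over all probes.

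Of 23 T-lineage genes, 3 rose and 1 fell in Gata2 KD (median -0.02), and 0 rose and 1 fell in Pu.1 KD (median -0.03). The shares called over all probes were 5.2% in Gata2 KD and 2.7% in Pu.1 KD. Cd7 rose by 2.42 ± 0.25, Thy1 by 1.31 ± 0.18 and Cd28, a costimulatory receptor, by 1.24 ± 0.25 in Gata2 KD, while Lat, an adaptor of T-cell and mast cell signaling, fell by 1.95 ± 0.16. Thy1 fell by 1.07 ± 0.18 in Pu.1 KD. The other CD3 chains did not pass, with changes of 0.26 and -0.03 for Cd3d and -0.30 and -0.22 for Cd3g, and neither did Lck (-0.32 and 0.33) or Cd4 (-0.07 and -0.01). Of 13 tested genes of NK and innate lymphoid cells, 2 rose and 1 fell in Gata2 KD (median -0.13), among them Id2, a partner and inhibitor of E proteins, which rose by 1.76, and Gzmb, which fell by 1.92. Id2 also rose, by 1.13, in Pu.1 KD (median 0.02). The receptor gene Klrk1 and the granzyme gene Gzma were above background on no array and Ncr1 on 2. Among the relatives of Gata3 and Tcf7, 7 genes in all, 2 fell in Gata2 KD, the targeted Gata2 and Gata1 (-1.08 ± 0.19), and 0 passed by limma in Pu.1 KD, also without adjustment (median -0.10 and -0.01).

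Markers of myeloid cells differed in the same comparisons as Ikzf1 and Cd79b. For the counts that follow, the shares called over all probes were 5.2% in Gata2 KD and 2.7% in Pu.1 KD. All 10 neutrophil genes rose in Gata2 KD (median 3.07) and 8 fell in Pu.1 KD (median -1.34), and 6 of 8 monocyte and macrophage genes rose in Gata2 KD (median 2.94) while 3 fell in Pu.1 KD (median -0.35). On a linear scale, in units of the 75th percentile of the array, the summed level of the neutrophil list lay between 240 and 270 in EV, 1123 and 1339 in Gata2 KD and 106 and 125 in Pu.1 KD. That of the monocyte list lay between 33.3 and 36.4, 243 and 294, and 13.7 and 15.2. The mast cell and basophil list, which includes Gata2 itself, ran the other way in Gata2 KD (7 of 10 fell and 1 rose, summed level 33.1 to 40.0 against 148 to 177 in EV) and had 2 higher and 2 lower in Pu.1 KD. In Pu.1 KD 3 of 6 megakaryocyte genes rose and 1 fell, and 2 of 7 erythroid genes rose. Ikzf1 is also expressed in myeloid cells, and the part of a changed content of myeloid cells in the differences of Ikzf1 and Cd79b was not tested.

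**Figure D4:**
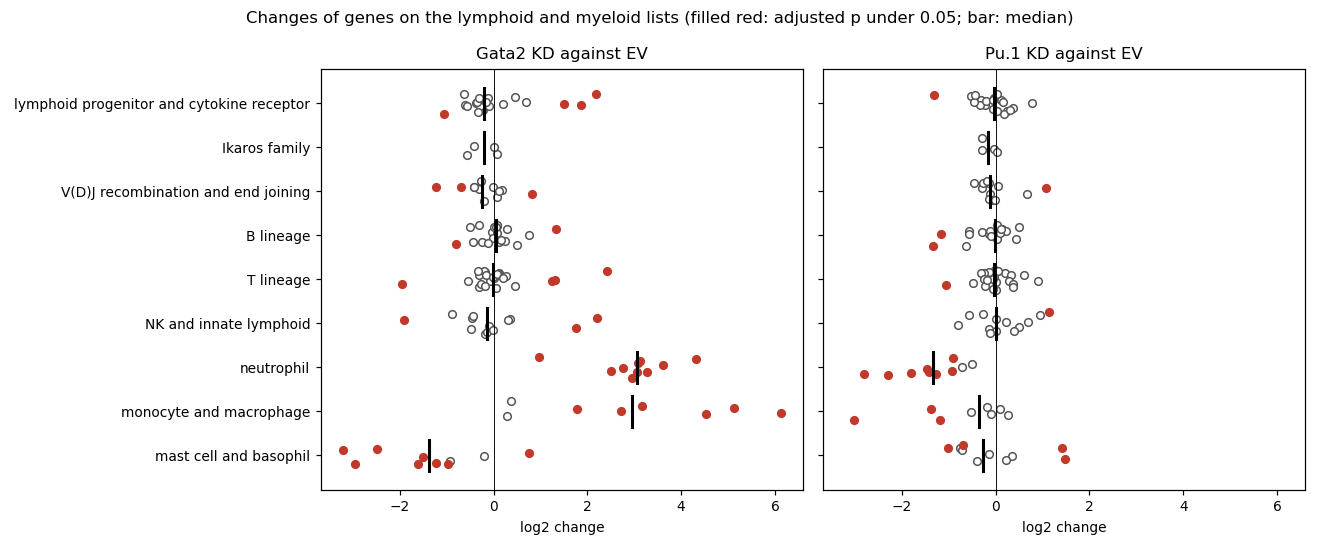
Log2 changes against EV of tested genes on 6 lymphoid and 3 myeloid lists, 1 point per gene, filled red where the adjusted p was under 0.05 and with a bar at the median of each list. The medians of the lymphoid lists lie between -0.24 and 0.05 in both comparisons, whereas the neutrophil list has a median of 3.07 in Gata2 KD and -1.34 in Pu.1 KD.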

How the data were processed

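Total RNA from 9 FDCPmix samples was hybridized to 1-color Agilent 4x44K whole mouse genome arrays, designed on the mouse build mm8. Per the file headers, the deposited intensity values came from Agilent Feature Extraction 10.1.1.1, and the processed signal was already background-corrected within each array without any normalization across arrays. A table of log2 values was deposited too, whose normalization is not given in the sources used here. It served as an alternative. Groups and replicate numbers came from the sample titles and slides from the array barcodes, and the scans were made on the same day.

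Control spots were dropped, outlier-flagged spots (47 to 96 per array) were set missing, and spots of a probe were averaged. The log2 processed signal was centered on the 75th percentile of the array. Tests covered probes that rose well above background on 3 or more of the 9 arrays and had at least 2 values in every group. Probes printed in 10 spots counted as above background when at least 50% of their spots were. limma 3.58.1 in R 4.3.3 was fitted on group means over all arrays, and 2-sided p-values were adjusted over all 36585 tested probes (Benjamini-Hochberg, threshold 0.05). The fit was tested on simulated data without slide differences, so that test does not cover the slide-dependent genes. Probes were named through their transcript identifiers from RefSeq on GRCm38.p6 (23374 of 41174 probes). No fold change is given where no array of a group gave a signal well above background. Variance was split into shares between groups and between slides, and the slide term was added to the fit for its own test, a choice made after seeing the data.

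Named genes are all members, the 2 knockdown targets, up to 3 called genes per list, direction and comparison with EV, and, by the highest Pearson correlation, the 3 genes most like each called member. Defining markers and other list genes that did not pass were named after their values were seen. Some list genes are counted but not reported here by name. A list gene was represented by its brightest probe. The members and the lists were chosen with earlier results of these data known. Array number limits the precision.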

Additional observations from a re-analysis of the deposited data

How the results depend on the processing

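Results were recomputed under 20 alternatives. Il7r probe 2 was not tested in 4 of them (with only probes above background on all 9 arrays, and without EV replicate 1, Pu.1 KD replicate 1 or Pu.1 KD replicate 3), and Il7r probe 1, Tcf7 probe 2 and Rag1 probes 1 and 2 were not tested in the first of these. The call of Cd79b in Pu.1 KD and the differences of Cd79b and Ikzf1 between the knockdowns passed in all of them. In Gata2 KD against EV the number of called member probes, 2 as reported, was 1 with the replicate number as a block, with normexp background correction, with quantile normalization, with scaling to the array median, with only probes above background on all 9 arrays, with trend and robust settings, in the deposited log2 values and with only the 2 groups compared, and 0 to 1 when an array was left out. It was 1 in every case in Pu.1 KD against EV and 2 to 3 between the knockdowns. Replicate numbers did not pair the samples: deviations of same-numbered arrays from their group means correlated between -0.55 and 0.65, and 3 of 9 arrays correlated best with an array of their own number, against 8 of 9 for their own slide (-0.04 to 0.72). With the replicate block the adjusted p of Ikzf1 in Gata2 KD was 0.132. Over 696 recomputed changes 609 kept direction and side of the threshold, 21 lost a call (12 of them Ikzf1 and 5 Il7r probe 2 in Gata2 KD against EV, 4 Il7r probe 2 between the knockdowns), and 66 uncalled changes switched sign. The number of probes called over the whole array ranged from 1070 to 2886 (1902 as reported) in Gata2 KD against EV, from 223 to 1875 (986) in Pu.1 KD against EV and from 2207 to 5168 (3524) between the knockdowns. The median shift of a probe's change under an alternative scaling was at most 0.05. The median change of all probes itself moved more. In Gata2 KD against EV it was -0.09 as reported, -0.02 under quantile normalization and -0.01 in the deposited values. In Pu.1 KD against EV it was -0.04 as reported and 0.02 under quantile normalization. Signals close to background limit Il7r, Rag1, Tcf7 probe 2 and Dntt probes 2 and 3, and 3 arrays per group limit all intervals. The fit as reported had no slide term, so the intervals of the slide-dependent genes also hold the differences between slides. Causes of these changes were not tested.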
